A study of Mus musculus with 30 samples.

Results

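The immunoglobulin light chain variable genes of young mouse B cells were examined: every entry of the young expression table whose symbol begins with Igkv (kappa) or Iglv (lambda). This rule takes 106 of the 27179 entries, 103 Igkv and 3 Iglv, and it uses names only, not measured values. The table of aged and leukaemic cells lists 0 such entries, so the genes could be followed in the young groups alone. The series as a whole studies a missense change of Ikzf3, the gene for the lymphoid zinc finger factor Aiolos, in mouse B cells and in chronic lymphocytic leukaemia arising in the mutant mice. The 3 wild-type and 3 homozygous libraries used here are RNA-seq of splenic B cells from C57BL/6 mice aged 2 to 3 months, taken with magnetic beads after red cell lysis. The wild-type samples carry the genotype label wild type and the homozygous samples the label Ikzf3 fl/fl, a conditional knock-in of the L161R change that the series' design restricts to B cells. The labels of these samples do not name the Cre driver, say whether the wild-type mice carried it, or say that each library is a separate animal, so p-values measure the spread between these samples.

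An antibody pairs heavy chains with light chains, and each light chain is either kappa or lambda. A developing B cell cuts its DNA with the RAG enzymes and joins a single variable (V) gene to a short joining (J) segment, and RNA splicing then links the assembled exon to the constant (C) region. Most B cells keep 1 light chain, so in a bulk sample the V gene transcripts record which light chains the cells carry, weighted by how much RNA each cell makes. A shift in a bulk sample can come from the number of cells that chose a V gene or from the RNA per cell, and these cannot be told apart here. Most mouse light chains are kappa, and the locus holds many V genes ahead of a small cluster of J segments. The mouse lambda locus is very small, and its V genes join mainly to their nearest J-C cluster: Iglv2 and Iglv3 lie before Iglj2 and Iglc2, and Iglv1 before Iglj3, Iglc3, Iglj1 and Iglc1.

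The kappa V genes span chromosome 6 from 67555636 to 70704177 and the lambda V genes chromosome 16 from 19085017 to 19260844 (RefSeq, GRCm38.p6, the assembly of the mm10 build that the submitters name). All 106 symbols matched RefSeq, which classes 105 as V segments and 1, Igkv13-71-1, as a pseudogene. The authors deposited TPM, a level per gene length scaled to the same total in every library. Levels of different genes are set side by side on this scale. How far it makes V, J and C genes, or kappa and lambda genes, comparable was not tested. Igkv13-71-1 was listed at 0 in all 6 libraries. Igkv1-35 reached at most 0.779 TPM and Igkv1-131 at most 1.06 TPM. These 3 genes missed the filter of 1 TPM in 3 libraries, and the other 103 were tested. Over the wild-type means, the median V gene stood at 158 TPM and the quartiles at 37.7 and 403 TPM. In the homozygous means the median was 139 TPM and the quartiles 30.5 and 353 TPM.

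The wild-type libraries differ among themselves in ways that the groups do not explain. Wild-type libraries 1 and 2 hold 80.9 and 63.1 TPM of Xist, the RNA of the inactive X chromosome, while wild-type library 3 and the homozygous libraries are at or under 0.0567 TPM. Ddx3y, a gene of the Y chromosome, was at 0.00435, 0.00866 and 54.3 TPM in wild-type and 107, 133 and 148 TPM in homozygous libraries. By these genes wild-type libraries 1 and 2 are female and the others male. Sex and genotype therefore cannot be told apart where a difference rests on wild-type libraries 1 and 2. The summed level of 12 macrophage and neutrophil markers was 3050, 5854 and 1610 TPM in wild-type libraries 1 to 3 and 524, 563 and 244 TPM in the homozygous libraries. None of the 12 is at 0 in any library, and of the 11 tested 6 were called lower (limma, adjusted p under 0.05), a call that 12.6% of all genes tested received, while 38.4% were called higher. Cd79a and the other 7 B cell markers summed to 8281 to 9879 TPM in wild-type and 9155 to 9862 TPM in homozygous libraries, with 5 of the 8 called higher and 1 lower. Ikzf3 stood at 250, 214 and 276 TPM in wild-type and at 381, 422 and 438 TPM in homozygous libraries, which does not check the labels because a missense change need not alter the level.

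Light chain V genes took between 26303 and 36885 TPM of each library. The sums were 35991, 36885 and 30240 TPM in wild-type libraries 1 to 3 and 30891, 33260 and 26303 TPM in homozygous libraries 1 to 3. The means were 34372 ± 3606 and 30151 ± 3537 TPM (SD, n = 3 each), or 3.44% and 3.02% of all TPM. The groups overlap, and the difference was within their spread (exact permutation test, two-sided, p = 0.3, where 0.1 is the smallest p that 3 against 3 allows). Most of the difference rests on wild-type libraries 1 and 2: without them it was -88.6 TPM, against -4221 TPM with all 6. A trimmed-mean rescaling between libraries, which evens out the median of all genes, moved it to -8710 TPM (exact permutation p = 0.1). Igkc, the kappa constant region, behaved like the V sum, with 14921, 14414 and 10696 TPM in wild-type and 11092, 12323 and 10352 TPM in homozygous libraries. Summed Igkv TPM was 2.11, 2.20 and 2.43 times Igkc in wild-type and 2.36, 2.32 and 2.22 times Igkc in homozygous libraries, so the V to C ratio of kappa overlapped (exact permutation p = 0.6). For lambda, summed Iglv TPM was between 0.653 and 0.903 times summed Iglc in the 6 libraries. A joined transcript holds a single V and a single C region, yet the V to C ratio differed between kappa and lambda. TPM of V against C genes, and of kappa against lambda genes, therefore does not count transcripts on a shared scale. The summed heavy chain V genes (Ighv) also overlapped, at 20368, 19276 and 15119 TPM against 17406, 19102 and 14952 TPM.

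Plasma cells hold far more immunoglobulin RNA per cell than resting B cells, so their markers are given beside these sums. The summed level of 15 plasma cell markers was 1997, 2253 and 1459 TPM in wild-type and 1855, 1923 and 1622 TPM in homozygous libraries, with none at 0, 3 called higher (Irf4, Slamf7, Edem1) and 2 lower (Fkbp11, Sdf2l1), beside 38.4% and 12.6% of all genes. Jchain, which links antibody multimers, was at 876, 1125 and 407 TPM in wild-type and 638, 718 and 473 TPM in homozygous libraries. Igha, the IgA constant region, was at 882, 1739 and 156 TPM against 296, 321 and 72.7 TPM. Wild-type libraries 1 and 2 are thus highest both in summed V gene TPM and in the myeloid list, Jchain being highest there too. The part of these other cells in the V gene levels was not tested.

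Usage, the share of each V gene in the summed Igkv and Iglv TPM of its library, was spread over many genes. On average over the 6 libraries 14 genes made up 50% of usage, 50 genes made up 90%, and the 10 most used genes made up 43.5%. The effective number of V genes (the exponential of the Shannon entropy, which equals the gene count when all shares are equal) was 53.4, 49.8 and 52.5 in wild-type and 51.8, 51.4 and 48.9 in homozygous libraries. The groups overlap (means 51.9 ± 1.87 and 50.7 ± 1.57, exact permutation p = 0.4), so no loss of breadth was detectable. The 10 most used genes of each library held 41.2%, 45.5% and 42.7% in wild-type and 43.3%, 44.4% and 47.3% in homozygous libraries.

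**Figure D1:**
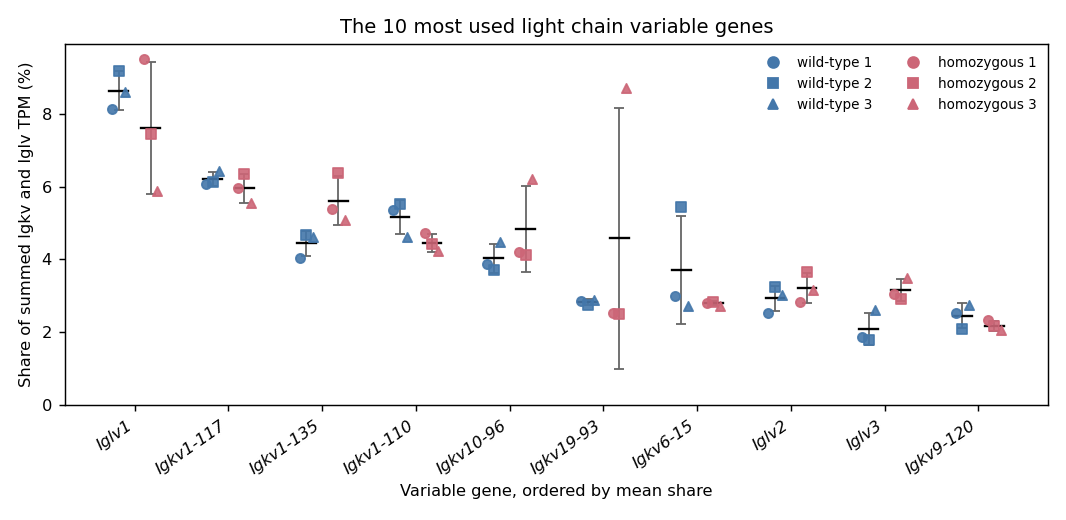
Share of summed Igkv and Iglv TPM (y axis, %) for the 10 V genes with the highest mean share over all libraries (x axis). Points are libraries, black lines group means and bars SD (n = 3); the shares of Iglv3 and Igkv1-135 are higher in homozygous libraries without overlap, and homozygous library 3 stands alone for Igkv19-93 at 8.71%.

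Iglv1 had the largest mean share of summed V TPM, a scale that does not count kappa and lambda transcripts alike. Its share was 8.14%, 9.19% and 8.60% in wild-type and 9.49%, 7.45% and 5.88% in homozygous libraries (means 8.64 ± 0.527% and 7.61 ± 1.81%). The homozygous libraries hold both the highest and the lowest of the 6 values, and the exact permutation p was 0.5. Igkv1-117 followed with 6.06%, 6.13% and 6.43% in wild-type and 5.96%, 6.34% and 5.55% in homozygous libraries, overlapping. Igkv1-135 had 4.04%, 4.68% and 4.61% against 5.39%, 6.38% and 5.08%, and here the shares do not overlap although the TPM levels do (1456, 1726 and 1394 against 1665, 2122 and 1335 TPM). Its level did not pass the test, with a log2 change of 0.14 (SE 0.17, limma adjusted p = 0.501), and under the trimmed-mean rescaling or without homozygous library 2 the sign turned.

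Igkv1-110 came next, at 1929, 2034 and 1400 TPM in wild-type and 1460, 1470 and 1112 TPM in homozygous libraries. Its libraries overlap only between wild-type 3 and the homozygous group, and its log2 change of -0.40 (SE 0.17) missed the threshold (limma adjusted p = 0.081). It passed under the trimmed-mean rescaling (-0.60, adjusted p = 0.0435) and without wild-type library 3 (-0.57, adjusted p = 0.00729), and was -0.07 without wild-type libraries 1 and 2. Igkv10-96 held the same level in 5 libraries, 1295 to 1395 TPM, and 1632 TPM in homozygous library 3. Igkv6-15 was at 2002 TPM in wild-type library 2 and between 718 and 1083 TPM in the other 5 libraries. The order by mean share does not hold in every library: in homozygous library 3, Igkv19-93 (8.71%) and Igkv10-96 (6.20%) stood above Iglv1 (5.88%) and Igkv1-117 (5.55%).

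Of the 103 V genes tested, 2 were called higher and 10 lower in homozygous cells (limma on log2(TPM + 1), adjusted p under 0.05 over all 12219 genes tested). Over all genes, 38.4% were called higher and 12.6% lower, so the count of V genes called lower is near the share of all genes and the count called higher is far under it. Groups did not overlap for 5 V genes on the higher and 14 on the lower side, where 44.5% and 16.9% of all genes did so. The log2 change was below 0 in 75 V genes and above 0 in 28, with a median of -0.22 against 0.18 over all genes tested. It lay below the all-gene median in 92 of the 103. A trimmed-mean rescaling brings the all-gene median to 0.00, and the split then becomes 0 higher and 24 lower, with a V gene median of -0.42. Over all genes 24.6% are then called higher and 22.1% lower, so the 24 are near the share of all genes. Rescaling instead to equal summed V gene TPM, which puts the V genes on the scale of usage, gives 4 higher and 8 lower V genes (37.1% and 6.14% of all genes). Of the 10 called lower on TPM only Igkv4-86 and Igkv8-21 kept the call there, and the other 8 lost it (adjusted p 0.145 to 0.77), while both genes called higher kept theirs. This rescaling gave most genes nearly the same standard error (Igkv3-12 went from 0.09 to 0.20), so the kept and lost calls carry little weight. Among the genes that lost the call, the shares of Igkv3-12, Igkv16-104, Igkv8-19 and Igkv4-60 still did not overlap between the groups. Of the 2 genes that kept the call on the higher side, the shares of Iglv3 did not overlap. Those of Igkv15-103 did, with 1.586% in wild-type library 3 and 1.559% in homozygous library 2. Leaving out wild-type libraries 1 and 2 gives 0 higher and 3 lower (Igkv3-4, Igkv3-12 and Igkv4-86) with a V gene median of -0.07, the lone wild-type library being assumed to vary like the others, and 16.6% and 5.83% of all genes are called. Leaving out wild-type library 3 gives 5 higher and 19 lower (39.9% and 15% of all genes), and leaving out homozygous library 3 gives 1 and 5 (27.8% and 8.35%). Leaving out wild-type library 1 gives 1 and 8 (29.5% and 9.48%), wild-type library 2 gives 1 and 10 (31.1% and 9.3%). Leaving out homozygous library 1 gives 2 and 8 (37.2% and 10.5%), and homozygous library 2 gives 1 and 13 (30.4% and 9.75%).

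Iglv3 was the V gene with the lowest adjusted p on the higher side. Its levels were 675, 659 and 788 TPM in wild-type and 942, 969 and 917 TPM in homozygous libraries. All homozygous libraries lie above all wild-type libraries, and the log2 change was 0.42 (SE 0.09, limma adjusted p = 0.00533). The change stayed past the threshold with any 1 library left out, but not under the trimmed-mean rescaling (0.22, adjusted p = 0.0535) or without wild-type libraries 1 and 2 (0.26, adjusted p = 0.103). The other called gene, Igkv15-103, stood at 327, 375 and 479 TPM in wild-type and 526, 519 and 485 TPM in homozygous libraries. Its groups meet without overlapping, with wild-type library 3 next to the homozygous ones. The log2 change of 0.39 (SE 0.13, limma adjusted p = 0.0353) lost its call without wild-type library 1 or 2 or any one homozygous library (adjusted p 0.0698 to 0.116) and under the trimmed-mean rescaling (0.232). Without both wild-type libraries 1 and 2 its change was 0.09 (adjusted p = 0.58), and the call was also lost with no filter on low values (0.0874) and in limma without trend or robust estimation (0.0606).

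Among the genes called lower, Igkv4-86 and Igkv3-12 had the lowest adjusted p. Igkv4-86 was at 308, 352 and 255 TPM in wild-type and 207, 170 and 180 TPM in homozygous libraries. The groups stand apart, the log2 change was -0.71 (SE 0.13, limma adjusted p = 0.00215), and the call held under every alternative tried. Igkv3-12 was at 222, 195 and 183 TPM in wild-type and within 1.45 TPM (SD) of a mean of 138 TPM in homozygous libraries. Its log2 change was -0.53 (SE 0.09, limma adjusted p = 0.00145), and the call held in all alternatives except rescaling to equal summed V gene TPM, where the change was -0.34 (SE 0.20, adjusted p = 0.164). Its shares still did not overlap, at 0.616%, 0.529% and 0.605% in wild-type and 0.442%, 0.419% and 0.523% in homozygous libraries.

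Igkv8-21 had the largest log2 change among the genes called lower. Its level went from 227, 349 and 201 TPM to 135, 181 and 132 TPM. The log2 change was -0.76 (SE 0.24, limma adjusted p = 0.0389), and the call was lost without wild-type library 1, homozygous library 1 or homozygous library 3 (adjusted p 0.0713, 0.103 and 0.114). Without both wild-type libraries 1 and 2 its change was -0.44 (adjusted p = 0.149). Igkv4-63 was at 123, 145 and 96.1 TPM in wild-type and 79.9, 85.1 and 92.1 TPM in homozygous libraries, close to touching at the edge. It was called at a log2 change of -0.48 (limma adjusted p = 0.0233) and lost without wild-type library 1, homozygous library 1 or homozygous library 2 (0.0687, 0.0856 and 0.0657). The call of Igkv4-63 was also lost with no filter on low values (limma adjusted p = 0.0593), and without both wild-type libraries 1 and 2 its change was -0.17. The genes Igkv4-92 and Igkv4-60 are expressed at a low level, 37.6 ± 3.58 and 22.9 ± 4.25 TPM in wild-type against 25.6 ± 4.92 and 15.5 ± 0.846 TPM in homozygous libraries. Both groups stand apart for each, with log2 changes of -0.55 and -0.52 (limma adjusted p = 0.00987 and 0.0101), and both calls were lost without wild-type libraries 1 and 2 (0.051 and 0.198) and when rescaled to equal summed V gene TPM (0.145 and 0.19).

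Igkv9-120 is the called gene among the 10 most used besides Iglv3. Its level was 914, 766 and 829 TPM in wild-type and 718, 724 and 539 TPM in homozygous libraries, a log2 change of -0.35 (SE 0.13, limma adjusted p = 0.0462). This call stands at the threshold and was lost without wild-type library 1 or 3 or homozygous library 1 or 3 (adjusted p 0.0541 to 0.159). With all 6 libraries it was also lost with no filter on low values (limma adjusted p = 0.106) and in limma without trend or robust estimation (0.0748). The remaining called genes, named only because they complete the count, are Igkv16-104, Igkv8-19 and Igkv5-43, with log2 changes of -0.41, -0.46 and -0.27 (limma adjusted p = 0.0268, 0.0311 and 0.0309). For Igkv16-104 and Igkv8-19 the groups overlap between wild-type library 3 and homozygous library 2. Each of the 3 calls was lost without wild-type library 1 or 2 and without homozygous library 1 or 3, and that of Igkv5-43 also without homozygous library 2. All 3 were also lost with no filter on low values (limma adjusted p = 0.0714, 0.0739 and 0.0522). Without both wild-type libraries 1 and 2, Igkv9-120 and these 3 genes had adjusted p of 0.214, 0.389, 0.454 and 0.359.

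The lambda share of usage overlapped between the groups. Iglv genes made up 12.6%, 14.2% and 14.2% of summed V TPM in wild-type and 15.4%, 14.0% and 12.5% in homozygous libraries (means 13.7 ± 0.957% and 14.0 ± 1.42%, exact permutation p = 1). The homozygous libraries hold the highest and the lowest value, and the sign of the difference turned without wild-type library 1 (-0.228 percentage points) or homozygous library 1 (-0.375). The kappa to lambda ratio of V gene TPM was 6.97, 6.04 and 6.03 in wild-type and 5.50, 6.13 and 6.98 in homozygous libraries. By constant genes the lambda share was larger, with Iglc at 27.9%, 29.4% and 33.4% of summed Igkc and Iglc TPM in wild-type. In homozygous libraries it was 33.8%, 29.5% and 32.8%, overlapping (exact permutation p = 0.4). The size of the lambda share thus depends on which genes are summed. Without Iglv1 the lambda share no longer overlaps, at 4.81%, 5.52% and 6.15% against 6.51%, 7.11% and 7.07% (exact permutation p = 0.1, the smallest possible).

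Within lambda, 2 genes were called higher (Iglv3 and Iglj2) and 1 lower (Iglc3), where 38.4% and 12.6% of all genes were. The first 2 lie in the cluster of Iglc2 and Iglc3 lies in the other, but so few calls do not set the clusters apart. The joining and constant genes were set beside the V genes after their values had been seen. Iglv2 had 914, 1192 and 913 TPM in wild-type and 877, 1219 and 833 TPM in homozygous libraries, a difference smaller than the spread (log2 change -0.05, SE 0.17, limma adjusted p = 0.809), and its sign turned without wild-type library 2 or homozygous library 1 or 3. Iglv1 had 2929, 3389 and 2599 TPM against 2933, 2479 and 1548 TPM, with homozygous library 3 low (log2 change -0.40, SE 0.25, limma adjusted p = 0.219). The ratio of Iglv3 to Iglv1 was 0.231, 0.194 and 0.303 in wild-type and 0.321, 0.391 and 0.593 in homozygous libraries, without overlap (exact permutation p = 0.1).

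Iglj2, the J segment downstream of Iglv3, was at 1500, 1390 and 1634 TPM in wild-type and 2147, 1816 and 1949 TPM in homozygous libraries. It was called higher with a log2 change of 0.39 (SE 0.10, limma adjusted p = 0.0109), a call lost under the trimmed-mean rescaling (0.19, adjusted p = 0.146) and without wild-type libraries 1 and 2 (0.142). Iglc2 stood at 2488, 2560 and 2360 TPM against 2691, 2500 and 2647 TPM, overlapping. Iglc3 was called lower, from 1620, 1689 and 1876 TPM to 1446, 1344 and 1458 TPM (log2 change -0.29, SE 0.09, limma adjusted p = 0.0251), and lost its call without wild-type library 2, homozygous library 2 or homozygous library 3 (0.0546, 0.103 and 0.0613). As a share of summed Iglc TPM, Iglc2 was 43.1%, 42.6% and 44.0% in wild-type and 47.6%, 48.4% and 52.4% in homozygous libraries. Iglj2 was 59.6%, 58.4% and 56.5% of summed Iglj TPM in wild-type and 67.1%, 65.3% and 64.5% in homozygous libraries. Neither share overlaps between the groups, and each reached the smallest exact permutation p, 0.1. The combined share of Iglv2 and Iglv3 in lambda V TPM does overlap, at 35.2%, 35.3% and 39.6% against 38.3%, 46.9% and 53.1% (exact permutation p = 0.2). Iglc genes are near copies of each other, and how the authors assigned reads between them is not given in the sources used here, so the split between the constant genes is uncertain.

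**Figure D2:**
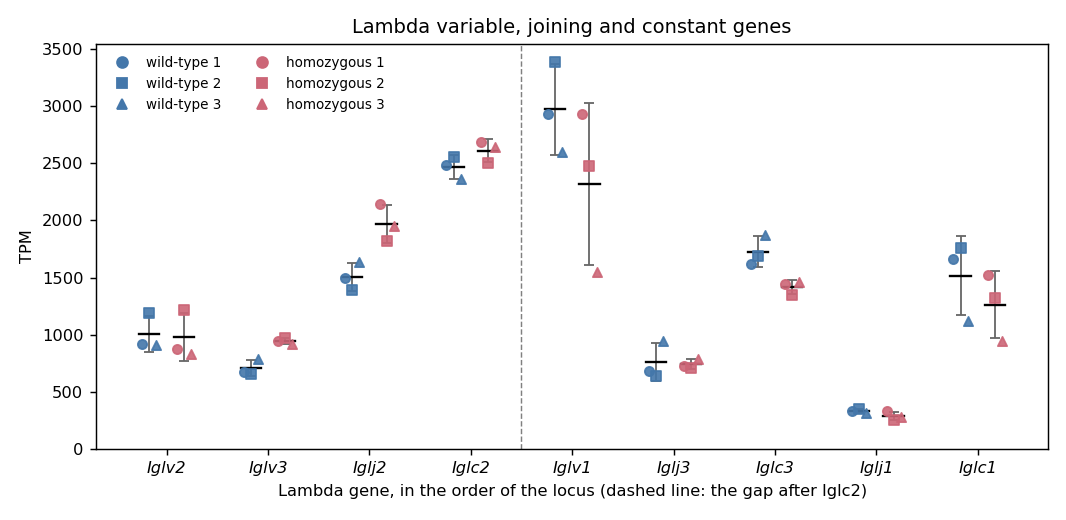
TPM (y axis) of the lambda V, J and C genes (x axis, in locus order, the dashed line after Iglc2), with points for libraries, black lines for group means and bars for SD (n = 3). Iglv3 and Iglj2 stand higher in homozygous libraries with no overlap, Iglc3 lower, and Iglv1 falls to 1548 TPM in homozygous library 3.

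Along the kappa locus the V genes were divided by position into the 34 nearest the J segments (Igkv3-1 to Igkv12-38), the 35 in the middle (Igkv5-39 to Igkv4-86) and the 34 farthest away (Igkv1-88 to Igkv2-137). The nearest 34 made up 29.7%, 27.2% and 24.3% of Igkv TPM in wild-type and 23.9%, 23.2% and 21.9% in homozygous libraries (means 27.1 ± 2.70% and 23.0 ± 1.01%). The farthest 34 made up 47.0%, 49.3% and 51.4% in wild-type and 52.8%, 51.7% and 55.7% in homozygous libraries (means 49.2 ± 2.18% and 53.4 ± 2.07%). Neither share overlaps between the groups and each has the smallest exact permutation p, 0.1. The margin is narrow, wild-type library 3 lying next to the homozygous libraries both times. The middle 35 overlap, with means of 23.7 ± 0.549% and 23.6 ± 1.37%.

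The difference by position depends on where the locus is divided. With 51 near and 52 far genes the nearer part held 46.9%, 44.5% and 41.7% in wild-type and 40.8%, 42.3% and 38.0% in homozygous libraries, which overlap (exact permutation p = 0.2). Leaving out the 7 genes that were high in 1 library alone reduced the difference of the nearest 34 from -4.05 to -2.61 percentage points (exact permutation p = 0.2), and leaving out wild-type libraries 1 and 2 reduced it to -1.27. Calls did not gather at one end, with 3 of 33, 4 of 34 and 3 of 33 tested genes called lower from near to far. Igkv15-103, called higher, lies in the far part. Over all genes 12.6% were called lower and 38.4% higher, so no part exceeds the share of all genes. The median log2 changes were -0.28, -0.23 and -0.13.

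**Figure D3:**
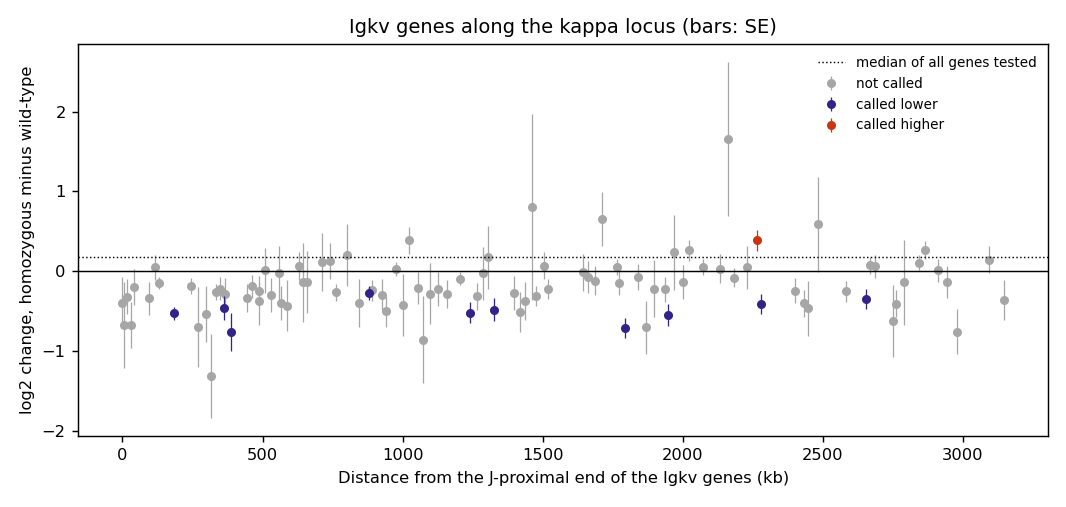
log2 change of each tested Igkv gene, homozygous minus wild-type (y axis; bars are SE), against its distance in kb from the J-proximal end of the Igkv genes (x axis). Most points lie below 0 and below the dotted all-gene median of 0.18, and genes called lower occur along the whole locus.

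By family (V genes of like sequence, the number after Igkv), the 10 Igkv1 genes had the largest mean share, 17.3%, with 16.5%, 17.4% and 16.8% in wild-type and 18.5%, 18.4% and 16.1% in homozygous libraries. Igkv4, with 28 genes the biggest family, had 10.4%, 10.8% and 10.7% in wild-type and 10.4%, 10.3% and 9.29% in homozygous libraries, means of 10.6 ± 0.199% and 9.99 ± 0.605%. Its groups do not overlap, by a small margin. Of its 28 genes 4 were among those called lower, near the 12.6% of all genes. Igkv6 likewise did not overlap, at 9.98%, 11.7% and 9.51% against 9.47%, 8.95% and 9.04%, and none of its 9 genes was called. Over the 6 families with a mean share of at least 5%, no family passed (Benjamini-Hochberg adjusted exact permutation p 0.3 to 0.4). The Igkv12 family, below that share, was at 5.56%, 5.25% and 5.08% in wild-type and 4.50%, 4.64% and 4.66% in homozygous libraries.

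Several V genes were high in just 1 library. With a threshold chosen after the values were seen, 7 of the 103 tested V genes stood at over 2 times every other library in 1 library (6.8%), as against 110 of all 12219 genes (0.9%). Igkv1-99 was at 483 TPM in homozygous library 1, at 71.4 and 48.9 TPM in homozygous libraries 2 and 3 and at 33.3 to 41.8 TPM in wild-type libraries. The other homozygous libraries also lie above the wild-type range, and without homozygous library 1 the log2 change was 0.66 (limma adjusted p = 0.0276), where with all 6 libraries it was 1.66 (SE 0.96, adjusted p = 0.216). Igkv4-71 was at 77.0 TPM in the same library and between 4.65 and 9.12 TPM in the others, and its log2 change of 0.80 became -0.42 without it.

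In homozygous library 3, Igkv19-93 reached 2292 TPM, against 778 to 1032 TPM elsewhere, and so became the most used V gene of that library at 8.71%. Its log2 change of 0.24 (limma adjusted p = 0.699) became -0.27 without that library. Igkv2-112 peaked in homozygous library 2, at 323 TPM against 64.7 to 153 TPM. The other 3 peaks all belong to wild-type library 1: Igkv3-2 at 930 TPM against 215 to 343, Igkv8-16 at 384 TPM against 55.3 to 137, and Igkv6-14 at 231 TPM against 59.0 to 91.7. Igkv8-16 also passed without that library, at a log2 change of -0.79 (limma adjusted p = 0.0372), where with all 6 libraries it was -1.31 (adjusted p = 0.0995). Wild-type libraries 2 and 3 held no peak by this threshold. None of the 7 genes was called with all 6 libraries in the fit that gave the counts of 2 higher and 10 lower. In other fits with all 6 libraries some were. Igkv8-16 was called lower in limma without trend or robust estimation (-1.31, adjusted p = 0.045). Rescaled to equal summed V gene TPM, Igkv8-16 (-1.12, limma adjusted p = 4.95e-05) and Igkv6-14 (-0.51, 0.0491) were called lower, calls that carry little weight. The last gene named for its spread, Igkv4-54, ranged from 3.69 TPM in homozygous library 3 to 24.9 TPM in wild-type library 2.

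**Figure D4:**
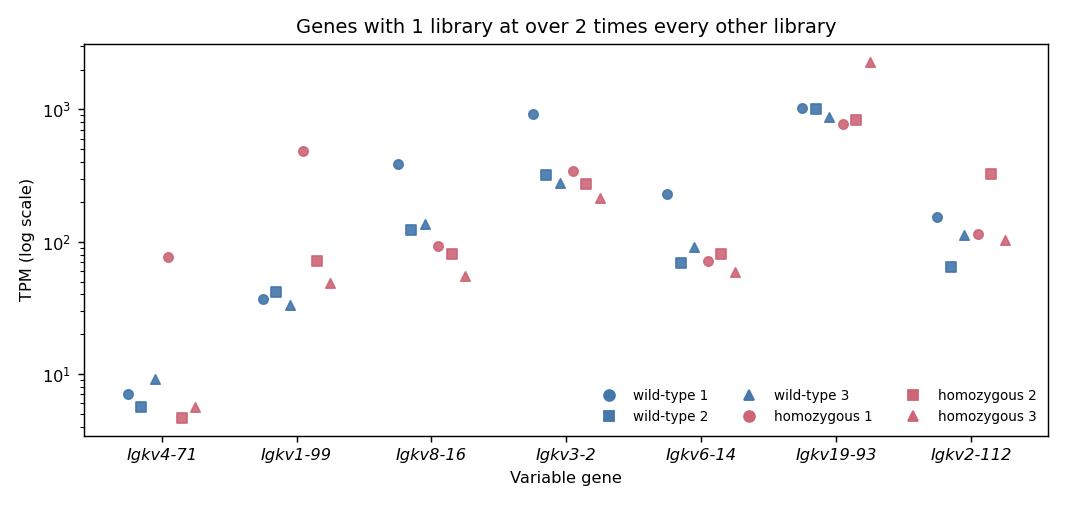
TPM on a log scale (y axis) of the 7 V genes with 1 library at over 2 times every other library (x axis), each point being a library. The peak lies in homozygous library 1 for Igkv4-71 and Igkv1-99, in wild-type library 1 for Igkv8-16, Igkv3-2 and Igkv6-14, in homozygous library 3 for Igkv19-93 and in homozygous library 2 for Igkv2-112.

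Spread between libraries of a group was described by the coefficient of variation. Among genes with at least 10 TPM, its median over 95 V genes was 15.6% in wild-type and 17.7% in homozygous libraries, where over all 8316 genes it was 7.78% and 7.40%. The V gene usage that any pair of libraries shared (the sum over genes of the smaller of the 2 shares) was 89.9% to 90.8% within wild-type, 88.0% to 91.7% within homozygous and 83.9% to 93.2% between the groups. The most alike pair crosses the groups, wild-type library 3 with homozygous library 1 at 93.2%, and the least alike is wild-type library 1 with homozygous library 3. The groups therefore do not separate as wholes in V gene usage.

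The kappa joining segments were higher in homozygous libraries, unlike the summed kappa V genes. This was examined after the values had been seen. The Igkj segments are the stretches of 38 or 39 bases that a V gene is joined to, at 70722562 to 70723923 on chromosome 6, and such short features make their TPM sensitive to how reads were assigned. Summed Igkj TPM was 13723, 13487 and 11736 in wild-type and 16607, 18336 and 17911 in homozygous libraries. All homozygous libraries lie above all wild-type ones (means 12982 ± 1086 and 17618 ± 900.6 TPM, exact permutation p = 0.1), the direction opposite to that of the V sum. The ratio of summed Igkj to summed Igkv was 0.436, 0.426 and 0.452 in wild-type and 0.635, 0.641 and 0.779 in homozygous libraries. It does not overlap, and the difference of 0.247 stayed between 0.200 and 0.272 with any 1 library left out.

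Igkj3 moved most, from 1217, 1067 and 1426 TPM to 2172, 2392 and 2789 TPM, a log2 change of 0.99 (SE 0.13, limma adjusted p = 0.000658). In the mouse this segment is known as the member of the cluster that is not used in functional kappa chains. Igkj4, at 2735, 2605 and 2229 TPM against 3370, 3714 and 3641 TPM, rose by 0.51 (limma adjusted p = 0.00346), Igkj5 by 0.43 (0.00526) and Igkj2 by 0.35 (0.0264). Igkj1 overlapped and was not called (0.20, adjusted p = 0.206). Over all genes tested, 38.4% were called higher, 44.5% stood higher without overlap, and the median log2 change was 0.18. Under the trimmed-mean rescaling Igkj3 and Igkj4 kept their calls and Igkj5 and Igkj2 did not (adjusted p = 0.0978 and 0.318), and Igkj2 was also lost without homozygous library 2 or 3 (0.0803 and 0.101). Within the J segments, Igkj3 took 8.87%, 7.91% and 12.2% of summed Igkj TPM in wild-type and 13.1%, 13.0% and 15.6% in homozygous libraries, while Igkj1 took 22.8%, 22.2% and 20.5% against 18.5%, 20.0% and 16.9%. Whether these reads come from joined light chain transcripts or from transcripts of unjoined segments was not tested.

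**Figure D5:**
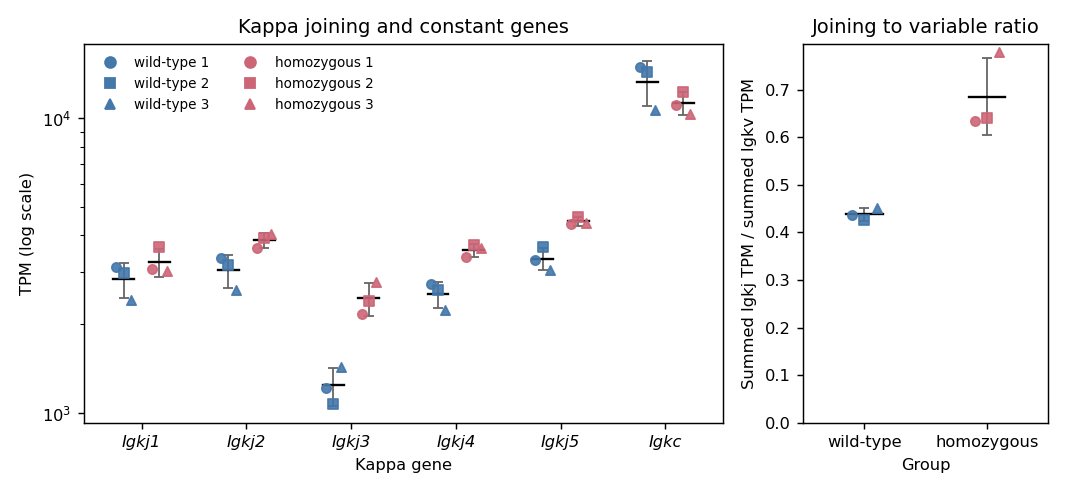
Left, TPM on a log scale of the 5 Igkj segments and Igkc (x axis); right, the ratio of summed Igkj to summed Igkv TPM by group, each with points for libraries, black lines for means and bars for SD (n = 3). The homozygous libraries stand higher for Igkj2 to Igkj5 and in the ratio, which is 0.438 ± 0.0133 in wild-type and 0.685 ± 0.0810 in homozygous libraries, while Igkc overlaps.

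Genes that assemble and express light chains were read from lists. Of 13 tested genes of V(D)J recombination, 8 were called higher and 0 lower, beside 38.4% and 12.6% of all genes. Rag1, a subunit of the recombinase, was at a very low level, 0.860, 0.696 and 0.376 TPM in wild-type and 1.70, 2.99 and 1.71 TPM in homozygous libraries (log2 change 0.92, limma adjusted p = 0.00721), while Rag2, its partner, did not exceed 0.133 TPM in any library and was not tested. Dclre1c, the Artemis nuclease that opens DNA hairpins, Atm, a DNA break kinase, and Prkdc, the catalytic subunit of DNA-PK, were called higher with log2 changes of 0.88, 0.79 and 0.74. Vpreb3, the only tested gene of 4 listed for the surrogate light chain, was called lower, from 236, 188 and 237 TPM to 148, 152 and 169 TPM (log2 change -0.49, limma adjusted p = 0.00539).

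Among 20 factors that bind immunoglobulin promoters or enhancers, 14 were called higher and 0 lower, beside 38.4% and 12.6% of all genes. Irf4, which binds the kappa and lambda enhancers with the ETS factors, had the largest change, from 67.7, 66.3 and 83.6 TPM to 212, 214 and 205 TPM (log2 change 1.53, SE 0.10, limma adjusted p = 2.93e-05). Pou2f1 (Oct-1), which binds the octamer of V gene promoters, changed by 0.97, Pax5, a B lineage factor, by 0.79, and Tcf4 (E2-2), an E protein, by 0.75. Of the B-1 cell markers 4 of 7 were called lower and 0 higher, of the marginal zone markers 2 of 6 lower and 1 higher (Cr2), and of the T cell markers 2 of 8 lower and 0 higher. B-1 markers summed to 125, 152 and 128 TPM in wild-type and 93.9, 108 and 92.3 TPM in homozygous libraries. Marginal zone markers summed to 2489, 2829 and 2619 TPM against 2235, 2070 and 2128 TPM, T cell markers to 19.4, 63.5 and 47.2 TPM against 21.6, 20.9 and 12.6 TPM, with none at 0. Which V genes these cell types carry was not tested.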

How the data were processed

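RNA-seq of splenic B cells was analysed from the authors' deposited TPM of the 6 young libraries (3 per group), each column summing to 1000000. The sources used here do not give the quantification tool, annotation, strandedness or treatment of reads that match several V genes, so near-identical V genes may share reads. The submitters' processing notes name mm10 and the aligners Bowtie2 2.3.4.1 and STAR 2.4.0.1, without tying either to an assay. TPM keeps no read number, so depth is unknown and no counting interval is given. Left out were 887 entries without a name and 26 with names turned into dates. The other 26266 were filtered at 1 TPM in 3 libraries, leaving 12219, and tested on log2(TPM + 1) with limma 3.58.1 (R 4.3.3, trend and robust, two-sided, Benjamini-Hochberg), with a fold change understated for low genes. Single values per library were compared by two-sided exact permutation (scipy 1.17.1). On simulated data with 200 of 12219 genes changed by a log2 of 1, 88% were recovered and 4.35% of calls were false. The changed genes were drawn from the better expressed ones, and the noise was independent between libraries. These rates therefore do not describe the smaller changes called among V genes. Named V genes are all Iglv, the 10 most used, the 6 called genes of largest change each way with at least 10 TPM and no overlap, the 3 of widest spread, and up to 4 of each list. Members and lists were chosen with earlier results of these data known. No V gene sequence was at hand, so promoter motifs, and gene orientation in the locus, were not analysed here. One further gene list is not reported here.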

Additional observations from a re-analysis of the deposited data

How the results depend on the processing

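The counts of V genes called higher and lower were 2 and 10, where 38.4% and 12.6% of all genes were called. They became 1 and 5 without a filter on low values (all genes 20.2% and 6.67%), 0 and 24 under trimmed-mean rescaling (24.6% and 22.1%), 3 and 23 with the replicate block (39.5% and 14.8%) and 0 and 3 without wild-type libraries 1 and 2 (16.6% and 5.83%). They were 4 and 8 when rescaled to equal summed V TPM (37.1% and 6.14%), of which 2 and 2 are genes called on TPM, and 1 and 11 in limma without trend or robust estimation (37.5% and 12.7%). Leaving out 1 library gave 1 to 5 higher and 5 to 19 lower (all genes 27.8% to 39.9% and 8.35% to 15%). Whether replicate numbers pair the libraries is not settled: same-numbered libraries correlated at -0.102, 0.242 and 0.316. For wild-type libraries 2 and 3 these were the best matches, while wild-type library 1 correlated best with homozygous library 2 (0.21). Changes of sign, none past the threshold on either side, were: under trimmed-mean rescaling Igkv1-135 (-0.0547), Igkv10-96 (-0.147) and Iglc2 (-0.116); with equal summed V TPM Iglv2 (0.137) and Iglj3 (0.177); without wild-type libraries 1 and 2 Iglv2 (0.076), Igkv6-15 (0.0242), Igkc (0.0699), Iglc1 (0.144) and the lambda share (-0.236 percentage points). With 1 library left out the log2 change ranged across 0 for Iglv2 (-0.224 to 0.0748), Igkv1-135 (-0.0264 to 0.308), Igkv10-96 (-0.0471 to 0.12), Igkv19-93 (-0.266 to 0.512), Igkv4-71 (-0.42 to 1.47) and Iglj3 (-0.123 to 0.16), and the lambda share difference from -0.375 to 1.05. The effective number of V genes kept a lower homozygous mean throughout. Alternatives for single genes cover chosen V, J and C genes, not all V genes tested. Over these, 445 outcomes kept direction and call, 67 lost a call, 14 gained one and 19 reversed. The 445 include genes called neither before nor after, so they do not measure how stable the calls are. The cause of the changes was not tested. Rescaling to equal summed V TPM gave most genes nearly the same standard error, so its calls carry little weight. Alternatives for the locus parts, the J segments and the peak genes were chosen after seeing the data. Unknown depth and 3 libraries per group limit what can be detected.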
